A study of Homo sapiens with 42 samples.

Results

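The 9 genes described here, CDKN1A, BTG2, GADD45A, SESN1, RRM2B, FAS, ZMAT3, GDF15 and MDM2, are known targets of the transcription factor p53, and they were taken by symbol from a table of 26228 genes measured in HAP1 cells given inhibitors of transcriptional kinases. All 9 were found, and all 9 were among the 12816 genes with at least 1 FPKM (fragments per kilobase of transcript, scaled to library depth) in at least 3 of the 42 libraries. GDF15 was under 1 FPKM in most libraries, and C312S with THZ1 was the group in which every library exceeded it (1.01, 1.07 and 1.52 FPKM). HAP1 is a near-haploid human line that derives from a leukaemia and grows attached. The libraries came from parental cells, called WT, and from cells whose CDK7 carries the substitution C312S, in which serine takes the place of the cysteine that covalent CDK7 inhibitors bind. Each line received the vehicle DMSO, YKL at 500 nM, YKL at 2 µM, THZ531, THZ1, or a combination of THZ531 with YKL at 500 nM or 2 µM, each for 24 h, which makes 14 groups of 3 libraries. YKL is read here as the selective covalent CDK7 inhibitor of the series title, THZ531 is a covalent inhibitor of CDK12 and CDK13, and THZ1 binds CDK7 covalently and hits CDK12 and CDK13 as well. Doses of THZ531 and THZ1 are not in the labels, which also do not say whether the C312S line is a clone and whether libraries of the same group are separate cultures. The p-values below therefore cover only how these libraries vary, and that may be technical.

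When DNA is damaged or the nucleolus is stressed, p53 escapes degradation, binds DNA as a tetramer and activates genes that halt the cell cycle, repair DNA or start cell death. CDKN1A encodes p21, which binds and blocks cyclin-dependent kinases, and BTG2 encodes an antiproliferative adaptor that recruits the CCR4-NOT deadenylase. GADD45A takes part in the damage-induced arrest of the cycle, SESN1 restrains mTORC1, RRM2B supplies deoxynucleotides outside S phase, FAS is a death receptor, ZMAT3 is an RNA-binding protein, and GDF15 is a secreted stress cytokine. MDM2 is the ubiquitin ligase that marks p53 for destruction, and as a target of p53 it closes a negative feedback loop. CDK7 itself sits in TFIIH, where it phosphorylates RNA polymerase II, and activates the cell-cycle kinases that p21 inhibits.

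The DNA before the transcription starts shows how the 3 genes that the comparison turns on differ, with SESN1 and FAS added because they hold the same kind of site. RefSeq windows (GRCh38.p14, 250 bases before a start) were used for 7 of the 9 genes, and only the parts without an exon in GENCODE 29 are printed, 5′ to 3′, with matches to the p53 consensus site in capitals. This site has 20 bases, was searched without a spacer and with at most 3 mismatches, reads the same on both strands, and was found in 4.36% of 35116 windows of this length. GADD45A and RRM2B are named only. The values below were mapped to hg19, and no coordinate is carried between the builds.
CDKN1A, GRCh38.p14 chr6:36678464-36678657, forward strand: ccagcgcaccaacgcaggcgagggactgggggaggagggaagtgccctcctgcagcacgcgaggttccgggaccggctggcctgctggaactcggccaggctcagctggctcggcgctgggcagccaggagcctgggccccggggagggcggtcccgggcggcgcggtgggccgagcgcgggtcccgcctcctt
BTG2, GRCh38.p14 chr1:203305269-203305518, forward strand: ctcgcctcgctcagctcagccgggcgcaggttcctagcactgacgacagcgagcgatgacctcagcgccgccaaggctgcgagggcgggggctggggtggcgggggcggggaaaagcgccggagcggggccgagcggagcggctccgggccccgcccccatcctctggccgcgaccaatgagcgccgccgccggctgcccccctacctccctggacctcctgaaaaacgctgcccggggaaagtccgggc
MDM2, GRCh38.p14 chr12:68808767-68809001, forward strand: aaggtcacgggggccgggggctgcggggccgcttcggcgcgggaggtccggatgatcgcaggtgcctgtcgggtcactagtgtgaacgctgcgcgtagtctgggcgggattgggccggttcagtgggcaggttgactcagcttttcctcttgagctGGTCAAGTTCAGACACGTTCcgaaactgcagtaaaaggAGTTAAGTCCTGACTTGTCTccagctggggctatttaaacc
SESN1, GRCh38.p14 chr6:109008989-109009238, reverse strand: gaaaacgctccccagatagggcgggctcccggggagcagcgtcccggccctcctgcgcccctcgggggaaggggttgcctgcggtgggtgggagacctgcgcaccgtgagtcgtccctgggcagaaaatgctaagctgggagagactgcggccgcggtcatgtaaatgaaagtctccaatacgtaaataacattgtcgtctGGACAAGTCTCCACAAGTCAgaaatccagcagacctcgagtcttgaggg
FAS, GRCh38.p14 chr10:88991181-88991430, forward strand: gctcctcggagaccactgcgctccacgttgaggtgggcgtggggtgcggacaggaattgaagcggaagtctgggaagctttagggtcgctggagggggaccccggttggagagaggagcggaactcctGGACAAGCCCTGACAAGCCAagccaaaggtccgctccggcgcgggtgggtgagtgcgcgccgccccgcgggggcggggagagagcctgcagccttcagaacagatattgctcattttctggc

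The MDM2 sequence lies in an intron of 4 of the 15 MDM2 transcripts in the basic annotation and holds 2 matches, 94 to 75 and 56 to 37 bases before the start, with 2 and 3 mismatches. It precedes the internal start of MDM2, which is known for its p53 sites. The SESN1 sequence, intronic in 2 of 3 transcripts, holds 1 match with 3 mismatches, and the FAS sequence, intronic in 4 of 4 transcripts, holds 1 with 2 mismatches. No match was found in the windows of CDKN1A and BTG2, nor in those of ZMAT3 and GDF15, at the other starts of SESN1 and FAS or at the 2 MDM2 starts farther upstream; an MDM2 start a few bases downstream of the printed one has both matches in its window too. This says only that such letters are not within these windows; the p53 sites for which CDKN1A is known lie farther upstream.

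Features of whole libraries touch every value below. The table gives FPKM without read counts, so the depth is unknown. The summed FPKM was 794374 in C312S DMSO and 852330 in C312S THZ1 on average, against 455948 to 628311 in the other 12 groups, and these groups stood apart from the other C312S groups also in the level of ERCC spike-in RNAs over that of the genes. That level, as a log2 value, was 0.76 and 0.98 in them, between -0.80 and -0.027 in the other C312S groups, -0.62 in WT DMSO, 0.068 and -0.47 in WT with YKL at 500 nM and 2 µM, and 1.82 in WT THZ1. A change in FPKM is therefore a change relative to the other genes. Where a change passed on the deposited or the spike-in scale and scaling to the spike-ins turns its sign, that value stands beside it or in the closing part on processing; how the spike-ins were added is not stated in the labels, and which scale reflects RNA per cell was not tested. Blood markers were near 0 for a line of leukaemic origin (9 of 10 under 1 FPKM in every library and 2, within these, at 0; sum 0.247 to 1.82 FPKM), 4 of 6 epithelial markers were under 1 FPKM in every library (sum 23.5 to 44.5), and 1 of 6 fibroblast markers was (sum 227 to 564). The fibroblast sum averaged 514 FPKM in WT DMSO, 334 and 348 with YKL at 500 nM and 2 µM, 297 and 262 in the combinations, 423 with THZ531 and 555 with THZ1, against 231 to 339 in the C312S groups. It is mostly VIM (up to 509 FPKM, against at most 25.7 for any other), as the epithelial sum is mostly KRT18 (up to 43.1). Of 5 fibroblast markers tested in WT, 1 rose and 2 fell with YKL 500 nM, beside 31.3% of all genes called higher and 31.7% lower. At 2 µM 2 rose and 3 fell, beside 31.8% and 33.5%. The part of these markers in the results was not tested.

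In WT cells under DMSO, MDM2 was the most abundant of the 9 messenger RNAs at 15.8 ± 0.689 FPKM (SD, n = 3, as for all group values), followed by BTG2 at 12.5 ± 0.590 and RRM2B at 6.92 ± 0.612. FPKM is a level per length, so genes can be set side by side on it. GADD45A (4.93 ± 0.897), SESN1 (4.23 ± 0.464) and CDKN1A (3.72 ± 0.351) followed with libraries that overlapped from each to the next. FAS had 2.08 ± 0.101 FPKM, ZMAT3 1.59 ± 0.271 and GDF15 0.275 ± 0.169.

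**Figure D1:**
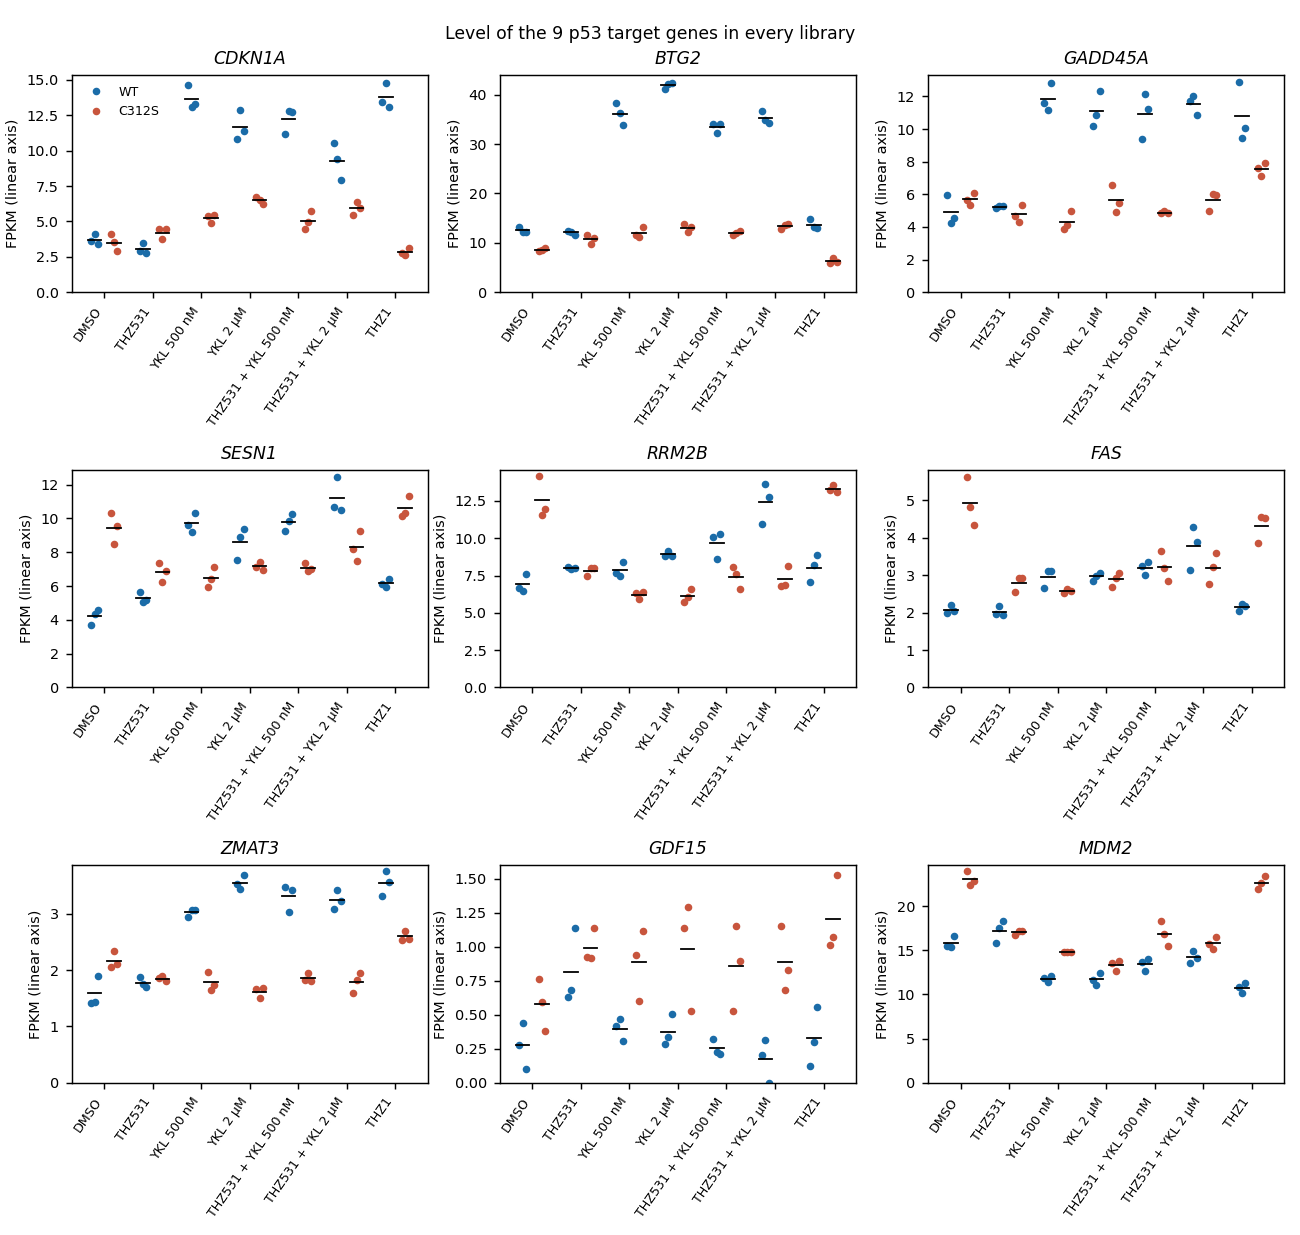
Level of each of the 9 genes in FPKM (y axis, linear, from 0) in the 14 groups (x axis), with 1 point per library, blue for WT and red for C312S, and a bar at the group mean. In the CDKN1A panel the 5 WT groups with YKL or THZ1 lie at 7.93 to 14.8 FPKM and the other 9 groups at 2.64 to 6.74; in the BTG2 panel WT THZ1 stays with the low groups.

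YKL alone shows how these genes change when a CDK7 inhibitor is given to cells whose CDK7 it can bind. These values hold no measure of CDK7 activity, and whether the changes come through CDK7 was not tested. CDKN1A and BTG2 rose most, GADD45A and SESN1 also rose, and MDM2 fell. CDKN1A, BTG2 and MDM2 were chosen for this contrast, with earlier results of these data known. Their p-values with YKL, here and below, therefore restate that choice and are not independent support. CDKN1A had 3.64, 4.11 and 3.43 FPKM in the WT DMSO libraries, 14.6, 13.0 and 13.3 with YKL 500 nM and 10.8, 12.9 and 11.4 with YKL 2 µM. Every YKL library lay far above every DMSO library. On the log2(FPKM + 1) scale used for all changes, which understates those of low genes, CDKN1A rose by 1.63 ± 0.096 (SE) at 500 nM and 1.42 ± 0.096 at 2 µM, with limma adjusted p = 2.00e-15 and 3.70e-14. BTG2 went from 13.2, 12.2 and 12.2 FPKM with DMSO to 38.3, 36.3 and 33.9 at 500 nM and 41.1, 42.2 and 42.3 at 2 µM. These groups did not overlap either, and the rises were 1.46 ± 0.061 (adjusted p = 3.72e-19) and 1.66 ± 0.061 (adjusted p = 7.70e-21). With spike-in scaling both genes still rose, CDKN1A by 1.09 and 1.39 and BTG2 by 0.84 and 1.58 at the lower and the higher dose.

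GADD45A, the other arrest gene, had 5.95, 4.26 and 4.58 FPKM with DMSO and 11.6, 11.1 and 12.8 with YKL 500 nM, a rise of 1.12 ± 0.11, and it rose by 1.04 at 2 µM. SESN1 went from 3.71, 4.37 and 4.60 to 9.60, 9.18 and 10.3 FPKM, a rise of 1.04 ± 0.080, with 0.88 at 2 µM. Neither gene's YKL libraries overlapped the DMSO libraries. ZMAT3 rose by 0.64 and 0.82, from a low level. The death receptor gene FAS rose by 0.36 at 500 nM, where spike-in scaling turned it to -0.11, and by 0.37 at 2 µM. RRM2B did not pass at 500 nM (0.16 ± 0.082, adjusted p = 0.0811; -0.42 with spike-in scaling) unless WT DMSO replicate 3 was left out (0.23), and rose by 0.33 at 2 µM. GDF15 did not pass at either dose (0.14 ± 0.15, with -0.021 on the spike-in scale, and 0.12).

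MDM2 moved the other way. Its libraries held 15.5, 15.4 and 16.6 FPKM with DMSO, 11.8, 11.4 and 12.1 with YKL 500 nM and 11.6, 11.1 and 12.5 with YKL 2 µM, without overlap. MDM2 fell by 0.39 ± 0.053 at 500 nM (adjusted p = 1.38e-07) and by 0.40 ± 0.053 at 2 µM (adjusted p = 7.88e-08). Of the 9 genes, 6 rose and 1 fell at 500 nM (4 and 2 with spike-in scaling), beside 31.3% of all tested genes called higher and 31.7% lower. At 2 µM 7 rose and 1 fell (6 and 1 with spike-in scaling), beside 31.8% of all genes called higher and 33.5% lower. These genes were chosen with earlier results of these data known, and CDKN1A, BTG2 and MDM2 for this contrast. Such counts, here and below, therefore restate that choice in part. Whether they exceed the shares of all genes was not tested. Spike-in scaling moved the median gene by -0.65 at 500 nM and -0.11 at 2 µM, and the share of higher calls among all called genes from 49.7% to 5.15% and from 48.7% to 35.0%; scaling to the total FPKM gave 77.1% and 78.5%.

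YKL at 2 µM was then set against YKL at 500 nM. BTG2 differed between them by 0.21 ± 0.061 (higher at 2 µM, adjusted p = 0.0388), and it was the 1 gene of 9 that passed, beside 6.18% of all genes; with spike-in scaling, which moved the median gene by 0.55, 8 passed. The BTG2 call was lost when any of 5 of the 6 libraries was left out (WT YKL 2 µM replicate 1 (0.22), WT YKL 2 µM replicate 2 (0.20), WT YKL 2 µM replicate 3 (0.20), WT YKL 500 nM replicate 2 (0.21) or WT YKL 500 nM replicate 3 (0.16)). For CDKN1A the difference was -0.21 ± 0.096, with a 95% interval of -0.41 to -0.012 (adjusted p = 0.208; 0.30 with spike-in scaling), and for MDM2 it was -0.0089 (-0.12 to 0.10; 0.50 with spike-in scaling).

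**Figure D2:**
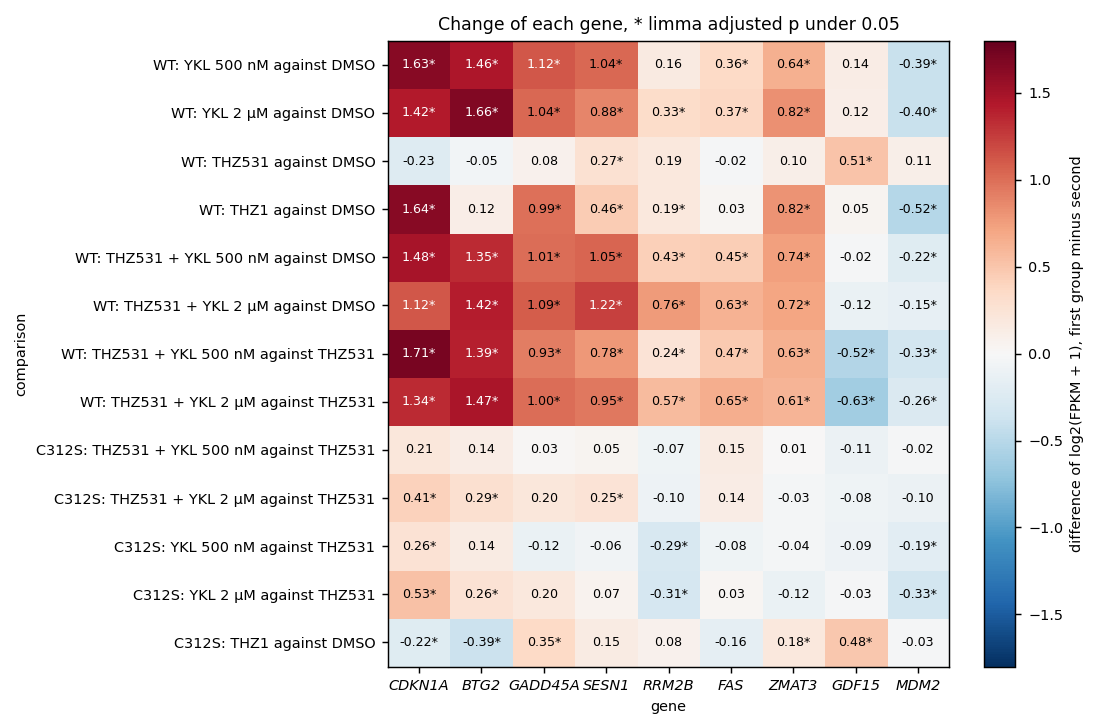
Heat map of the change of each gene (columns) in 13 comparisons (rows), as a difference of group means of log2(FPKM + 1), with the value printed in each cell and a star where limma's adjusted p was under 0.05. The CDKN1A column reaches 1.64 in WT with THZ1 and the MDM2 column -0.52 there; with spike-in scaling the WT THZ1 row is negative for all 9 genes, and signs in other rows turn as the text gives.

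THZ531, the inhibitor of CDK12 and CDK13, did not raise CDKN1A or BTG2 in WT cells. CDKN1A held 2.89, 3.49 and 2.74 FPKM, within or below the range of the DMSO libraries, a change of -0.23 ± 0.096 with limma adjusted p = 0.0536. This value passed as a fall without WT THZ531 replicate 2 (-0.30) or WT DMSO replicate 3 (-0.27), with a pseudocount of 0.1 (-0.29, adjusted p = 0.0380) and with median-ratio scaling (adjusted p = 0.0492). BTG2 held 12.5, 12.2 and 11.6 FPKM and changed by -0.046 ± 0.061 (95% interval -0.17 to 0.079; 0.020 with spike-in scaling). The libraries of MDM2 held 15.8, 17.5 and 18.3 FPKM, a change of 0.11 ± 0.053 (adjusted p = 0.0837) that passed without WT THZ531 replicate 1 (0.17) or WT DMSO replicate 3 (0.15). SESN1 rose by 0.27 ± 0.080 (adjusted p = 0.00627), a call lost without WT DMSO replicate 1 (0.20). GDF15 rose by 0.51 ± 0.15 (adjusted p = 0.00727), from 0.278, 0.442 and 0.104 to 0.627, 0.681 and 1.13 FPKM, a call lost without WT THZ531 replicate 3 (0.38) or WT DMSO replicate 3 (0.41). RRM2B (0.19) and ZMAT3 (0.10) passed only without WT DMSO replicate 3 (0.25 and 0.19). These 2 of 9 genes called, SESN1 and GDF15, stand beside 46.9% of all genes called.

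THZ1 separated CDKN1A from BTG2. In WT cells CDKN1A held 13.4, 14.8 and 13.1 FPKM with THZ1, all above every DMSO library, and rose by 1.64 ± 0.096 relative to the other genes (adjusted p = 9.49e-16; -0.45 with spike-in scaling). BTG2 held 14.9, 13.1 and 13.0 FPKM with THZ1, libraries that overlapped those of DMSO, and changed by 0.12 ± 0.061 (adjusted p = 0.0889; -2.05 with spike-in scaling). It passed as a rise without WT DMSO replicate 1 (0.15). The sets of libraries thus put CDKN1A with THZ1 at the level that YKL gave, and BTG2 near that of DMSO.

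GADD45A with THZ1 held 12.9, 9.44 and 10.1 FPKM and rose by 0.99, SESN1 rose by 0.46 and ZMAT3 by 0.82, against -1.07, -1.44 and -0.77 with spike-in scaling. RRM2B passed as a rise of 0.19 ± 0.082 (adjusted p = 0.0426; -1.82 with spike-in scaling) with overlapping libraries, and lost the call without WT DMSO replicate 1 (0.17), WT DMSO replicate 2 (0.15), WT THZ1 replicate 2 (0.17) or WT THZ1 replicate 3 (0.12). FAS (0.030) and GDF15 (0.052) did not pass, and with spike-in scaling they were -1.38 and -0.36. MDM2 held 10.8, 10.2 and 11.3 FPKM, under every DMSO library, and fell by 0.52 ± 0.053 (adjusted p = 4.72e-10; -2.64 with spike-in scaling). Of the 9 genes 5 rose and 1 fell, beside 34.0% of all genes called higher and 34.8% lower. With spike-in scaling 0 rose and 9 fell: that scaling moved the median gene by -2.43 and left 0.257% of called genes higher, against 49.4% as deposited.

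Set directly against YKL 2 µM, a comparison of these groups and not of matched doses, WT THZ1 had lower BTG2 by 1.55 ± 0.061 (adjusted p = 7.22e-20), lower SESN1 (-0.42) and lower FAS (-0.34). CDKN1A was higher by 0.22 ± 0.096 (adjusted p = 0.0438), but -0.21 when scaled to the total FPKM and -1.84 when scaled to the spike-ins. The call did not hold without WT THZ1 replicate 1 (0.24), WT THZ1 replicate 2 (0.17), WT YKL 2 µM replicate 1 (0.17) or WT YKL 2 µM replicate 3 (0.20). GADD45A, ZMAT3, GDF15, RRM2B and MDM2 did not pass, with differences of -0.14 to -0.0053; RRM2B passed without WT THZ1 replicate 3 (-0.21) and MDM2 without WT THZ1 replicate 3 (-0.14) or WT YKL 2 µM replicate 2 (-0.15). The 4 called genes of 9 stand beside 68.0% of all genes.

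**Figure D3:**
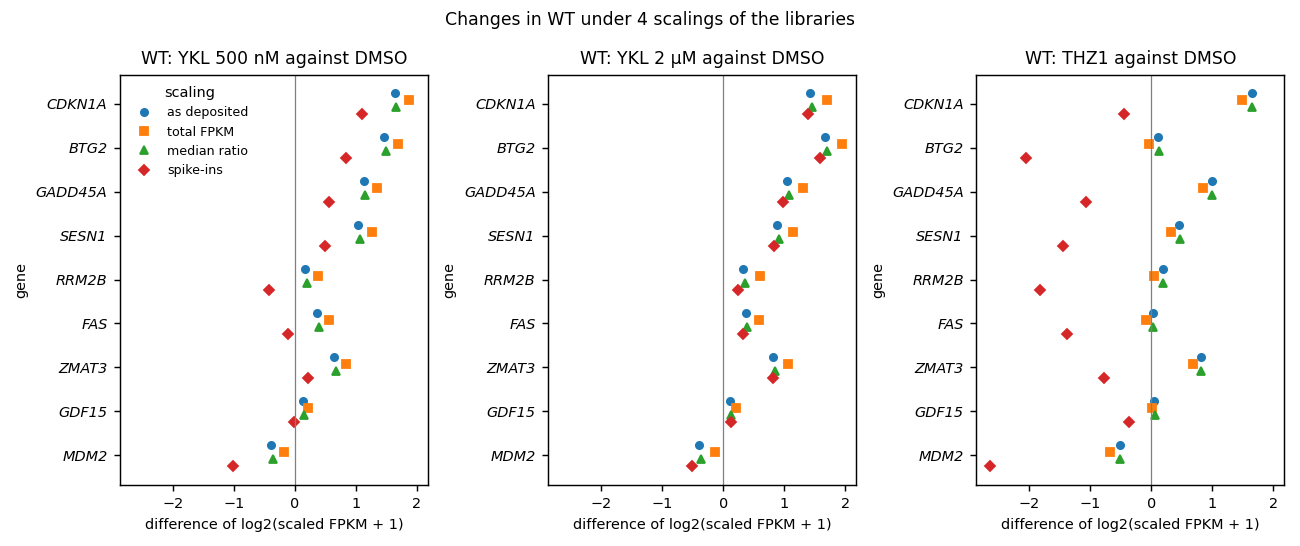
Change against DMSO (x axis, log2 scale) of the 9 genes in WT with YKL 500 nM, YKL 2 µM and THZ1, under 4 scalings of the same table (deposited FPKM, equal total FPKM, median ratio over genes, ERCC spike-ins). CDKN1A and BTG2 stay above 0 with YKL under all 4, RRM2B, FAS and GDF15 turn below 0 at 500 nM with the spike-ins, and with THZ1 all 9 genes lie below 0 with the spike-ins (-0.45 for CDKN1A, -2.64 for MDM2).

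Adding YKL to THZ531 asks whether the response to YKL stays when an inhibitor of CDK12 and CDK13 is also given. In WT cells it did for CDKN1A and BTG2. CDKN1A held 11.2, 12.8 and 12.7 FPKM in the combination at 500 nM and 10.6, 9.39 and 7.93 at 2 µM, all above THZ531 alone, and rose over it by 1.71 ± 0.096 and 1.34 ± 0.096 (adjusted p = 8.87e-16 and 9.25e-14). BTG2 held 34.0, 32.2 and 34.0 and 36.7, 34.8 and 34.2 FPKM, and rose by 1.39 ± 0.061 and 1.47 ± 0.061 (adjusted p = 1.62e-18 and 1.86e-19). Over THZ531 GADD45A rose by 0.93 and 1.00 and SESN1 by 0.78 and 0.95, but with spike-in scaling the values at 2 µM were -0.052 and -0.10.

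RRM2B rose by 0.24 and 0.57, against -0.18 and -0.51 with spike-in scaling, and the first of these calls was lost without WT combination 500 nM replicate 1 (0.21) or WT combination 500 nM replicate 3 (0.20). FAS rose by 0.47 and 0.65 and ZMAT3 by 0.63 and 0.61, with -0.23 and -0.24 at 2 µM with spike-in scaling, which also ended the FAS call at 500 nM (0.16). GDF15 fell by 0.52 ± 0.15 and 0.63 ± 0.15, to means of 0.253 and 0.172 FPKM; 1 of its libraries at 2 µM is listed at 0. MDM2 fell by 0.33 ± 0.053 and 0.26 ± 0.053. At each dose 7 of the 9 genes rose and 2 fell over THZ531, beside 31.5% of all genes called higher and 29.7% lower at 500 nM, and 38.3% higher and 35.3% lower at 2 µM. At 2 µM with spike-in scaling 2 rose and 5 fell, and 2.03% of all called genes were higher.

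Against DMSO, the same combination libraries showed CDKN1A higher by 1.48 at 500 nM and 1.12 at 2 µM, BTG2 by 1.35 and 1.42, and RRM2B by 0.43 and 0.76 (-0.25 at 2 µM with spike-in scaling). Of all WT groups the combination at 2 µM had the highest mean RRM2B (11.0, 13.6 and 12.8 FPKM), FAS (3.14, 4.28 and 3.89) and SESN1 (11.2 ± 1.08). With spike-in scaling CDKN1A at 2 µM no longer passed over DMSO (0.16, adjusted p = 0.251), while BTG2 did (0.35). MDM2 fell by 0.22 and 0.15, the first not with total-FPKM scaling (-0.063, adjusted p = 0.341), the second with adjusted p = 0.0133 and lost without WT combination 2 µM replicate 1 (-0.12) or WT DMSO replicate 3 (-0.11). At both doses 7 of 9 genes rose and 1 fell (5 and 1 at 500 nM, 1 and 3 at 2 µM with spike-in scaling), beside 34.0% of all genes called higher and 34.2% lower at 500 nM, and 38.9% higher and 38.1% lower at 2 µM. With spike-in scaling 13.5% of all called genes were higher at 500 nM and 2.55% at 2 µM. The comparisons with DMSO and with THZ531 share the combination libraries.

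In C312S cells, whose CDK7 lacks the bound cysteine, CDKN1A and BTG2 moved less on the deposited scale. CDKN1A held 4.09, 3.52 and 2.90 FPKM with DMSO, 4.47, 3.73 and 4.45 with THZ531, 5.41, 4.88 and 5.45 with YKL 500 nM and 6.74, 6.51 and 6.24 with YKL 2 µM. The YKL libraries lay above the DMSO and THZ531 libraries, and the highest of them was under the lowest WT library with YKL. BTG2 held 8.39, 8.63 and 8.97 FPKM with DMSO, 11.5, 9.82 and 11.0 with THZ531, 11.6, 11.2 and 13.2 with YKL 500 nM and 13.8, 12.2 and 13.2 with YKL 2 µM, so that YKL 500 nM overlapped THZ531. Because the C312S DMSO libraries stood apart, THZ531 is used as a second reference.

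Over THZ531, YKL at 500 nM gave CDKN1A a rise of 0.26 ± 0.096 (adjusted p = 0.0429; -0.12 with spike-in scaling), a call lost without C312S THZ531 replicate 2 (0.19), C312S THZ531 replicate 3 (0.30), C312S YKL 500 nM replicate 1 (0.24) or C312S YKL 500 nM replicate 3 (0.24), and BTG2 0.14 ± 0.061 (adjusted p = 0.0877; -0.28 with spike-in scaling; called without C312S THZ531 replicate 1 (0.19)). At 2 µM CDKN1A rose by 0.53 ± 0.096 (adjusted p = 8.34e-05; 0.25 and adjusted p = 0.102 with spike-in scaling) and BTG2 by 0.26 ± 0.061 (adjusted p = 0.00146; -0.060 with spike-in scaling). RRM2B fell by 0.29 and 0.31, and MDM2 by 0.19 and 0.33, at the lower and the higher dose. GADD45A, SESN1, FAS, ZMAT3 and GDF15 did not pass at either dose, with changes from -0.12 to 0.20. So 1 of 9 genes rose and 2 fell at 500 nM, beside 12.8% of all genes called higher and 13.2% lower, and 2 and 2 at 2 µM, beside 16.6% higher and 17.3% lower. With spike-in scaling the counts were 0 and 8 at 500 nM and 0 and 4 at 2 µM. On that scale 0.81% and 3.56% of all called genes were higher.

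The combination at 500 nM changed none of the 9 genes over THZ531 in C312S by limma's adjusted p; CDKN1A and BTG2 had an unadjusted p under 0.05, both higher, and 0.577% of all genes were called. CDKN1A differed by 0.21 ± 0.096 (95% interval 0.014 to 0.41) and BTG2 by 0.14 ± 0.061 (0.016 to 0.27), both intervals below the WT rises of 1.71 and 1.39; with spike-in scaling the differences were -0.11 and -0.21. At 2 µM the combination libraries held 5.47, 6.37 and 5.94 FPKM of CDKN1A and 12.7, 13.6 and 13.8 of BTG2, rises of 0.41 ± 0.096 and 0.29 ± 0.061 relative to the other genes (adjusted p = 0.00136 and 5.22e-04) and changes of -0.25 and -0.44 with spike-in scaling. SESN1 rose by 0.25 ± 0.080 (adjusted p = 0.0152; -0.45 with spike-in scaling), lost without C312S THZ531 replicate 2 (0.19) or C312S combination 2 µM replicate 3 (0.18). These 3 of 9 rose and 0 fell, beside 18.5% of all genes called higher and 16.3% lower; with spike-in scaling 0 rose and 6 fell at 500 nM, and 0 rose and 8 fell at 2 µM. On that scale 0.238% and 0.314% of all called genes were higher.

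**Figure D4:**
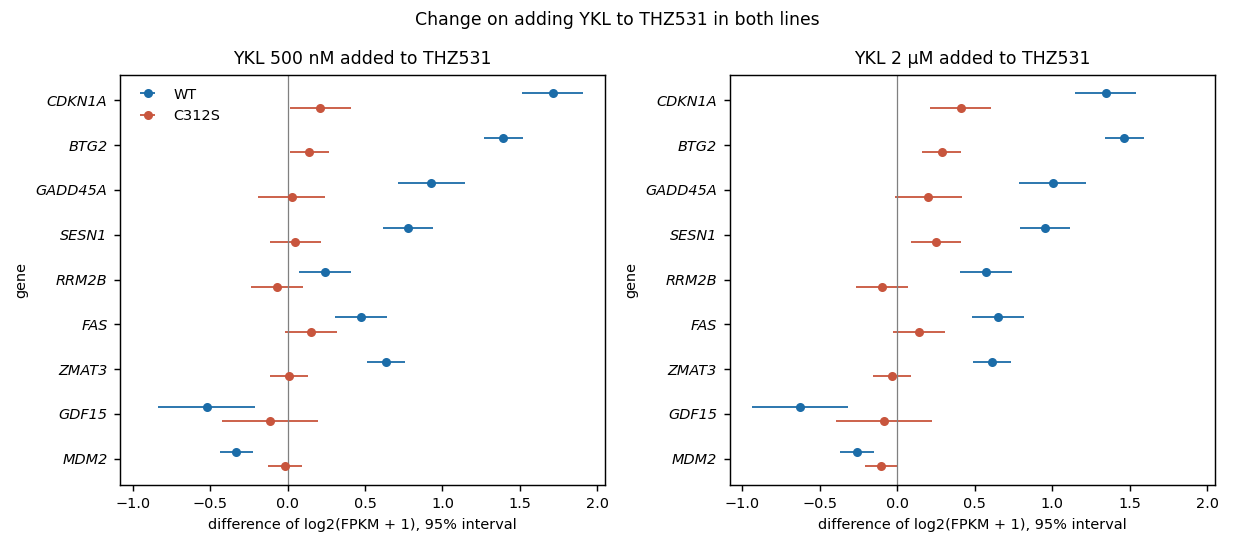
Change on adding YKL to THZ531 (x axis, log2(FPKM + 1) scale, points with 95% intervals from limma) for the 9 genes in WT and in C312S, at 500 nM and 2 µM. The WT points of CDKN1A (1.71 and 1.34) and BTG2 (1.39 and 1.47) lie to the right of the C312S points (0.14 to 0.41); with spike-in scaling the C312S values at 2 µM turn to -0.25 and -0.44, and in WT at 2 µM GADD45A, SESN1, RRM2B, FAS and ZMAT3 turn below 0.

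Against C312S DMSO, a group that stood apart, CDKN1A rose by 0.48 and 0.74 and BTG2 by 0.43 and 0.54 with YKL 500 nM and 2 µM, also with spike-in scaling (1.73 and 1.68 at 2 µM). With spike-in scaling these rises at 2 µM were larger than those given above for WT, while as deposited they were smaller. At 2 µM RRM2B (-0.92), MDM2 (-0.75), FAS (-0.61), SESN1 (-0.35) and ZMAT3 (-0.27) fell relative to the other genes, and all 5 turned positive with spike-in scaling (0.22, 0.45, 0.39, 0.78 and 0.53); SESN1 and ZMAT3 also did with total-FPKM scaling (0.094 and 0.049). As deposited, 2 rose and 6 fell at 500 nM and 2 rose and 5 fell at 2 µM, beside 36.9% of all genes called higher and 39.6% lower at 500 nM, and 36.6% higher and 39.2% lower at 2 µM. With spike-in scaling 7 rose and 0 fell at 500 nM, and 8 rose and 0 fell at 2 µM. On that scale 99.9% and 99.8% of all called genes were higher.

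With THZ1, C312S cells held 2.77, 2.64 and 3.15 FPKM of CDKN1A and 5.99, 7.02 and 6.11 of BTG2, the lowest mean of either gene in any group. This comparison rests on the DMSO and THZ1 groups that both stood apart. BTG2 fell by 0.39 ± 0.061. The CDKN1A change of -0.22 ± 0.096 (adjusted p = 0.0471) came with overlapping libraries, had adjusted p = 0.0513 with the replicate number as a block, and was lost without C312S DMSO replicate 1 (-0.13), C312S DMSO replicate 2 (-0.21), C312S THZ1 replicate 1 (-0.21) or C312S THZ1 replicate 2 (-0.18). GADD45A rose by 0.35 ± 0.11 (7.59, 7.13 and 7.90 FPKM), ZMAT3 by 0.18 ± 0.060 and GDF15 by 0.48 ± 0.15; the last was lost without C312S THZ1 replicate 3 (0.38), and none of the 3 passed with spike-in scaling (0.14, 0.022 and 0.25). SESN1 (0.15) passed as a rise without C312S DMSO replicate 1 (0.21) and FAS (-0.16) as a fall without C312S DMSO replicate 3 (-0.23). MDM2 did not pass (-0.027 ± 0.053). In all 3 of 9 rose and 2 fell (0 and 2 with spike-in scaling), beside 33.9% of all genes called higher and 29.7% lower. With spike-in scaling 19.7% of all called genes were higher.

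With the vehicle alone the lines differed, also in fibroblast markers, of which all 5 tested were lower in C312S (summed 255 FPKM against 514). Whether these differences belong to the line or to the C312S DMSO libraries, which stood apart, cannot be told from this comparison. Under DMSO C312S had more SESN1 (10.3, 8.49 and 9.56 FPKM, 1.00 over WT), FAS (5.63, 4.83 and 4.35, 0.94), RRM2B (14.2, 11.5 and 12.0, 0.77), MDM2 (24.0, 22.4 and 22.9, 0.52) and ZMAT3 (0.30), but with spike-in scaling these were -0.25, -0.15, -0.53, -0.85 and -0.63. ZMAT3 was -0.034 with total-FPKM scaling. BTG2 was lower by 0.49, and CDKN1A (-0.075), GADD45A (0.18; -1.02 with spike-in and -0.24 with total-FPKM scaling) and GDF15 (0.31) did not pass. GADD45A passed without WT DMSO replicate 1 (0.30) and GDF15 without WT DMSO replicate 2 (0.40) or C312S DMSO replicate 3 (0.40). The 6 called genes stand beside 79.2% of all genes. Under THZ531, where neither group stood apart, the lines were closer: 3 of 9 were higher in C312S and 0 lower, CDKN1A by 0.37 ± 0.096 (adjusted p = 0.00390), SESN1 by 0.31 and FAS by 0.33, beside 17.0% of all genes called higher and 13.5% lower. BTG2 did not pass there (-0.16, adjusted p = 0.0511) unless C312S THZ531 replicate 1 was left out (-0.20) or another scaling was used (-0.25 with total FPKM). MDM2 differed by -0.011 (95% interval -0.12 to 0.098).

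The difference between the lines was tested as the change in C312S minus that in WT. On adding YKL to THZ531, CDKN1A changed less in C312S by 1.50 ± 0.14 at 500 nM and 0.93 ± 0.14 at 2 µM (limma adjusted p = 2.56e-10 and 1.09e-06), and BTG2 by 1.25 ± 0.087 and 1.18 ± 0.087 (adjusted p = 5.91e-13 and 1.46e-12). For YKL against THZ531 the differences were -1.60 and -1.13 for CDKN1A, and -1.36 and -1.45 for BTG2. GADD45A, SESN1 and ZMAT3 also changed less in C312S in these 4 comparisons, by 0.54 to 1.16, though for the combination at 2 µM GADD45A (-0.42, adjusted p = 0.0560) and SESN1 (-0.35, adjusted p = 0.104) did not pass with spike-in scaling. With THZ531 as the reference, MDM2 differed in the other direction, since it fell less in C312S: by 0.32 at 500 nM for the combination and 0.32 for YKL alone. At 2 µM the MDM2 difference did not pass for the combination (0.16, adjusted p = 0.0814), and for YKL it was 0.18 (adjusted p = 0.0439; -0.0026 with total-FPKM scaling), a call lost when any of 9 libraries was left out. Against DMSO, a reference that stood apart in C312S, MDM2 instead fell more in C312S as deposited. Its C312S means went from 23.1 FPKM to 14.8 and 13.3 with YKL 500 nM and 2 µM, and its WT means from 15.8 to 11.8 and 11.7. With spike-in scaling MDM2 rose in C312S against DMSO. For THZ1 against DMSO the difference was -1.86 ± 0.14 for CDKN1A (adjusted p = 3.10e-12; 0.13 with spike-in scaling) and -0.51 for BTG2 (1.52 with spike-in scaling). The called differences numbered 8 of 9 genes for the combination at 500 nM and 8 at 2 µM, beside 41.5% and 53.1% of all genes, 7 and 8 for YKL beside 46.5% and 48.7%, and 6 for THZ1 beside 42.2%. The comparisons of a line share its THZ531 libraries.

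Within a library, the ratio of CDKN1A or BTG2 to MDM2 does not depend on how the library is scaled, apart from the pseudocount. It is given as a description, because the genes were chosen for this contrast. The FPKM ratio of CDKN1A to MDM2, from group means, was 0.236 in WT DMSO and 0.177 with THZ531, but 1.16 and 0.997 with YKL 500 nM and 2 µM, 1.28 with THZ1, and 0.908 and 0.655 in the combinations. So CDKN1A reached about the level of MDM2 in WT cells given YKL or THZ1 alone. The ratio of BTG2 to MDM2 was 0.793 in WT DMSO, 0.705 with THZ531, 3.07 and 3.57 with YKL, 2.48 and 2.48 in the combinations, and 1.27 with THZ1. In C312S the CDKN1A ratio ran from 0.126 with THZ1 and 0.152 with DMSO through 0.248 with THZ531 to 0.487 with YKL 2 µM, and the BTG2 ratio from 0.281 and 0.375 through 0.633 to 0.981 in the same groups. On the log2(FPKM + 1) scale, the WT libraries had CDKN1A over MDM2 of -1.99 to -1.68 with DMSO and 0.12 to 0.29 with YKL 500 nM, and BTG2 over MDM2 of -0.42 to -0.21 and 1.42 to 1.61.

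**Figure D5:**
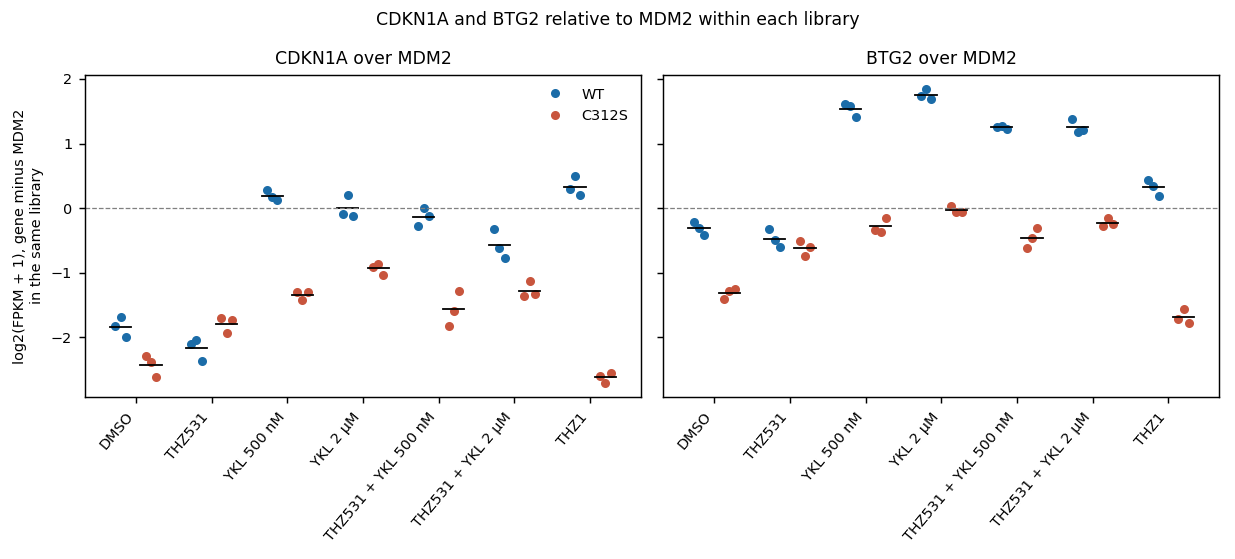
Log2 ratio of CDKN1A and of BTG2 to MDM2, from FPKM + 1 (y axis), in each of the 42 libraries by group (x axis), blue for WT and red for C312S. CDKN1A over MDM2 lies at -1.99 to -1.68 in WT DMSO and at 0.20 to 0.49 in WT THZ1; BTG2 over MDM2 lies at -0.42 to -0.21 and 0.19 to 0.43 in these groups, and at 1.68 to 1.84 in WT YKL 2 µM.

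Ordered by level over the 14 groups, CDKN1A was highest in WT THZ1 (13.8 FPKM) and WT YKL 500 nM (13.6), whose libraries overlapped, then in the WT combination at 500 nM (12.2) and WT YKL 2 µM (11.7), which also overlapped, and then in the WT combination at 2 µM (9.29). C312S groups with YKL followed (5.05 to 6.50), and WT THZ531 (3.04) and C312S THZ1 (2.85) were last. BTG2 ran from WT YKL 2 µM (41.9) through WT YKL 500 nM (36.2), whose libraries overlapped those of both WT combinations, down to WT THZ1 (13.7), C312S combination 2 µM (13.4) and C312S YKL 2 µM (13.1), which overlapped one another. Below them came 5 groups from WT DMSO (12.5) to C312S THZ531 (10.8), and last C312S DMSO (8.66) and C312S THZ1 (6.38), which overlapped neither one another nor any group above them. MDM2 was highest in C312S DMSO (23.1) and C312S THZ1 (22.7), the groups that stood apart, which overlapped, and lowest in WT THZ1 (10.8). Over the 14 group means of log2(FPKM + 1), which share control and C312S groups, CDKN1A correlated with BTG2 at r = 0.82, with GADD45A at 0.81, with ZMAT3 at 0.76, with SESN1 at 0.33, with RRM2B at -0.077, with FAS at -0.13, with GDF15 at -0.65 and with MDM2 at -0.88, and GADD45A with ZMAT3 at 0.95.

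A wider list of 60 other p53 targets, 55 of them tested, moved in both directions. In WT with YKL 500 nM 26 rose and 12 fell, with a median change of 0.21 against -0.0019 over all tested genes, and at 2 µM 23 rose and 13 fell (median 0.090). Of all tested genes 31.3% were called higher and 31.7% lower at 500 nM, and 31.8% and 33.5% at 2 µM. With spike-in scaling the list's counts were 2 and 39 at 500 nM, and 16 and 11 at 2 µM, and with total-FPKM scaling 39 and 6, and 41 and 6. SERTAD1, a regulator of cyclin D and CDK4, rose from 5.68 ± 0.373 to 11.6 ± 0.218 FPKM with YKL 500 nM (0.92). The death receptor gene TNFRSF10B rose by 0.35 (-0.29 with spike-in scaling). TRIM22, an antiviral ubiquitin ligase gene, fell by 0.82 and the nuclease gene AEN by 0.48.

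With THZ531 11 of the 55 rose and 17 fell in WT, 28 called beside 46.9% of all genes, but 17 rose and 12 fell with total-FPKM scaling. BAX, which permeabilizes mitochondria in apoptosis, fell from 85.9 ± 1.12 to 49.9 ± 1.43 FPKM (-0.77), the oxidoreductase gene TP53I3 fell from 13.0 ± 1.39 to 6.85 ± 0.171 (-0.83), and ARHGEF3 rose by 0.45. With THZ1 24 rose and 19 fell (0 and 54 with spike-in and 16 and 27 with total-FPKM scaling), beside 34.0% of all genes called higher and 34.8% lower. FDXR, the ferredoxin reductase gene, rose from 10.5 ± 0.572 to 30.3 ± 2.01 FPKM (1.44; -0.83 with spike-in scaling), the kinase gene PLK2 by 1.29 (-0.48) and SERTAD1 by 1.38 (-0.78). In the combinations 21 rose and 19 fell at 500 nM and 22 rose and 23 fell at 2 µM over DMSO (8 and 33, and 1 and 48, with spike-in scaling), beside 34.0% of all genes called higher and 34.2% lower, and 38.9% and 38.1%; at 2 µM SERTAD1 rose by 1.51, and PIDD1, which encodes the scaffold of the PIDDosome, fell by 1.28. In C312S, limma called 0 of the 55 for the combination at 500 nM over THZ531 (8 at an unadjusted p under 0.05, 6 of them higher; 0 rose and 43 fell with spike-in scaling), beside 0.577% of all genes. At 2 µM 13 rose and 4 fell, beside 18.5% of all genes called higher and 16.3% lower, but 6 rose and 7 fell with total-FPKM scaling, and 0 and 55 with spike-in scaling. The spike-in counts of this list and those below stand beside the shares of higher calls given above for each comparison.

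Of 19 regulators of p53, 18 were tested, and with YKL in WT 6 rose and 8 fell at 500 nM and 5 rose and 8 fell at 2 µM, beside 31.3% of all genes called higher and 31.7% lower, and 31.8% and 33.5%. With total-FPKM scaling the counts were 8 and 6, and 9 and 6. MDM4, which binds and restrains p53 beside MDM2, fell with YKL 500 nM from 2.32 ± 0.259 to 1.34 ± 0.0522 FPKM (-0.50). The checkpoint kinase gene CHEK1 fell by 0.75, and RPL5, whose ribosomal protein can bind MDM2, fell from 1639.7 ± 158 to 844 ± 7.66 FPKM (-0.95). Reads of RPL5 and its near-identical pseudogenes may have been split in a way the sources used here do not give. With THZ531 5 regulators rose and 3 fell, with THZ1 7 and 8, and in the combinations over DMSO 2 and 8 at 500 nM and 4 and 9 at 2 µM. Of all tested genes 46.9% were called with THZ531, and 34.0% were called higher and 34.8% lower with THZ1. In the combinations these shares were 34.0% and 34.2% at 500 nM, and 38.9% and 38.1% at 2 µM. With spike-in scaling 0 of the 18 rose with YKL 500 nM and 15 fell, 0 rose and 18 fell with THZ1, and 0 rose and 13 and 18 fell in the combinations. With total-FPKM scaling 4 rose and 9 fell with THZ1, and 6 rose and 5 fell in the combination at 500 nM.

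Of 26 relatives and partners of the 9 genes 25 were tested, and with YKL in WT 14 rose and 8 fell at 500 nM and 13 rose and 9 fell at 2 µM (6 and 13, and 9 and 8, with spike-in scaling), beside the same shares of all genes as above. SESN3, a relative of SESN1, had 2.02, 2.21 and 2.46 FPKM with DMSO, 9.81, 10.6 and 10.9 with YKL 500 nM and 17.0, 14.8 and 16.4 with YKL 2 µM, rises of 1.83 and 2.40 without overlap. It was 15.1 ± 1.44 FPKM in the WT combination at 2 µM (2.32). CCND1, which encodes cyclin D1, rose from 4.09 ± 0.138 to 11.7 ± 0.0502 and 14.4 ± 0.185 FPKM (1.31 and 1.60). RRM2, the S phase subunit that RRM2B can replace, fell by 0.76 and 1.09. Its level went from 187 ± 7.29 to 109 ± 1.84 and 87.2 ± 0.655 FPKM, while RRM2B changed by 0.16 and 0.33 (-0.42 at 500 nM with spike-in scaling). PCNA, the replication clamp that p21 binds, fell by 0.67 at 500 nM. With THZ1, GADD45B, a relative of GADD45A, rose from 4.96 ± 0.269 to 17.5 ± 2.01 FPKM (1.63; -0.53 with spike-in scaling). With THZ531 6 rose and 7 fell (9 and 7 with total-FPKM scaling; 46.9% of all genes were called), with THZ1 13 and 8 (0 and 25 with spike-in and 10 and 12 with total-FPKM scaling), and in the combinations over DMSO 14 and 9 at 500 nM and 13 and 8 at 2 µM (6 and 10, and 3 and 18, with spike-in scaling). Of all tested genes 34.0% were called higher and 34.8% lower with THZ1. In the combinations these shares were 34.0% and 34.2% at 500 nM, and 38.9% and 38.1% at 2 µM.

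Among 8532 genes with a mean of at least 5 FPKM, those whose 14 group means followed CDKN1A most closely were HM13 (Pearson r = 0.974), TAP1 (0.968), PIGG (0.964), GPX3 (0.963) and FAM53C (0.955). HM13, the signal peptide peptidase gene, had 81.6 ± 6.88 FPKM in WT DMSO, 112 ± 5.92 with YKL 500 nM and 119 ± 3.13 with THZ1. Nearest to BTG2 were TXNRD3 (0.982), TSPYL1 (0.980), ADIPOR1 (0.977), FBXW9 (0.974) and TTPAL (0.973), and among the nearest to MDM2 were ZNF639 (0.987), ATL2 (0.985), UBE2D2 (0.983) and ANKRD32 (0.981). None of these 14 genes is on the lists of p53 targets used here, and whether p53 acts on them was not tested. The 14 points are few and share the groups that stand apart, so these are descriptions of likeness in level.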

How the data were processed

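FPKM per gene, as deposited by the authors, were used for 42 libraries of polyadenylated RNA, grouped by cell line and treatment label. The authors made them with HISAT2 2.0.4, Cufflinks 2.2.1 and Cuffnorm on hg19, per the submitters' processing notes; filters and normalization settings are not given in the sources used here. The protocols name a stranded library kit. Combinations are labelled without their compounds, which come from codes in the column names. Columns were tied to samples by the description field, and 0 stayed without a sample. The table holds 26228 genes and 92 ERCC rows (23 over 1 FPKM in all libraries). It gives no read counts, so the depth is unknown and no counting interval is given. Exact 0s can be failed estimates.

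Tests used limma (version 3.58.1, in R 4.3.3) on log2(FPKM + 1), for the 12816 genes that reached 1 FPKM in 3 or more libraries, with 14 group means over all libraries and a trend on expression. A call is a Benjamini-Hochberg adjusted p under 0.05, with the adjustment made in each comparison over all tested genes. The model was fitted for 32 comparisons, 24 of them reported, and the fit was tested on simulated data. Changes are the first group minus the second. Alternatives were a pseudocount of 0.1, no filter, scaling to the total FPKM, to the median ratio over the 10376 genes above 1 FPKM in all libraries or to the spike-ins, the compared groups alone, a replicate block, and leaving out each library. The lowest correlation between libraries of a group was 0.970, and 0 pairs were identical. Plots were drawn with matplotlib 3.10.9 in Python 3.11.15.

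Besides the 9 genes, the text names genes from lists of other p53 targets, p53 regulators, and relatives and partners: up to 3 higher and 3 lower in each WT treatment over DMSO with the smallest p, at least 5 FPKM in a compared group and libraries without overlap, of which some are printed. MDM4, CDKN1B, RRM1 and RRM2 were open to naming anywhere, as were the 5 genes most like each of CDKN1A, BTG2 and MDM2. Some results open to naming in this way are not reported here. SESN3, CCND1 and GADD45B come under this rule. The 9 genes and the lists were chosen with earlier results of these data known. Their counts of called genes are therefore descriptions, also where they stand beside shares of all genes. The COP1 gene is in the table under its older symbol RFWD2.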

Additional observations from a re-analysis of the deposited data

Results flagged for a closer look

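The change in C312S was compared with that in WT for each of the 9 genes, and differences past limma's adjusted p of 0.05 are given here as C312S minus WT on the log2(FPKM + 1) scale. A negative value means that the gene changed less, or in the other direction, in C312S. For the combination at 500 nM over THZ531 the differences were -1.50 for CDKN1A, -1.25 for BTG2, -0.90 for GADD45A, -0.73 for SESN1, -0.31 for RRM2B, -0.32 for FAS, -0.63 for ZMAT3 and 0.32 for MDM2, with adjusted p from 5.91e-13 to 0.0320. The call of RRM2B was lost without WT THZ531 replicate 2, WT combination 500 nM replicate 1 or 3, C312S THZ531 replicate 2 or 3 or C312S combination 500 nM replicate 3 (values of -0.31 to -0.24). The call of FAS was lost without WT THZ531 replicate 1 or 3, WT combination 500 nM replicate 3, C312S THZ531 replicate 2 or 3 or C312S combination 500 nM replicate 3 (values of -0.31 to -0.26). At 2 µM the combination gave -0.93 for CDKN1A, -1.18 for BTG2, -0.80 for GADD45A, -0.70 for SESN1, -0.67 for RRM2B, -0.51 for FAS, -0.64 for ZMAT3 and 0.54 for GDF15, with adjusted p from 1.46e-12 to 0.0337. The call of GDF15 was lost without WT THZ531 replicate 3, WT combination 2 µM replicate 3, C312S THZ531 replicate 1 or 2 or C312S combination 2 µM replicate 1 (values of 0.42 to 0.52). YKL at 500 nM over THZ531 gave -1.60 for CDKN1A, -1.36 for BTG2, -1.16 for GADD45A, -0.83 for SESN1, -0.47 for FAS, -0.57 for ZMAT3 and 0.32 for MDM2, with adjusted p from 6.79e-14 to 0.00128. YKL at 2 µM over THZ531 gave -1.13 for CDKN1A, -1.45 for BTG2, -0.76 for GADD45A, -0.54 for SESN1, -0.45 for RRM2B, -0.36 for FAS, -0.84 for ZMAT3 and 0.18 for MDM2, with adjusted p from 1.19e-14 to 0.0439. The call of MDM2 was lost without WT THZ531 replicate 2 or 3, WT YKL 2 µM replicate 1 or 2, C312S THZ531 replicate 1 or 2 or 3 or C312S YKL 2 µM replicate 1 or 3 (values of 0.14 to 0.19). THZ1 over DMSO gave -1.86 for CDKN1A, -0.51 for BTG2, -0.64 for GADD45A, -0.31 for SESN1, -0.63 for ZMAT3 and 0.49 for MDM2, with adjusted p from 3.10e-12 to 0.0282. With spike-in scaling these turned to 0.13 for CDKN1A, 1.52 for BTG2, 1.21 for GADD45A, 1.39 for SESN1 and 0.79 for ZMAT3. The call of SESN1 was lost without WT DMSO replicate 1, WT THZ1 replicate 3, C312S DMSO replicate 1 or 3 or C312S THZ1 replicate 1 or 2 (values of -0.30 to -0.23). The THZ1 difference rests on the C312S DMSO and THZ1 groups, which stood apart from the other C312S groups. It rests also on WT THZ1, which had the highest spike-in level over the genes of the 14 groups (1.82). Spike-in scaling moved the median gene for THZ1 over DMSO by -2.43 in WT and by -0.22 in C312S. The other differences do not use the THZ1 groups or C312S DMSO.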

How the results depend on the processing

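Of 216 gene results in 24 comparisons, 138 were called, and 122 of these kept their call whichever library was left out; 16 lost it in at least 1 such fit and 20 others gained one. Those not named beside their results above are MDM2 in C312S minus WT for the combination at 2 µM over THZ531 (0.16), called without WT THZ531 replicate 1 (0.21) or WT combination 2 µM replicate 2 (0.19), and 5 results of GDF15. GDF15 in C312S passed over DMSO with YKL 500 nM without C312S YKL 500 nM replicate 2 (0.37), and with YKL 2 µM without C312S DMSO replicate 1 (0.40) or C312S YKL 2 µM replicate 3 (0.49). As C312S minus WT it passed for THZ1 without WT THZ1 replicate 3 (0.55), for the combination at 500 nM without C312S combination 500 nM replicate 1 (0.54) and for YKL 2 µM over THZ531 without C312S YKL 2 µM replicate 3 (0.54). Direction and side of the threshold were kept by 212 results with a pseudocount of 0.1, 208 without a filter, 208 with median-ratio scaling, 208 with only the compared groups, 215 with the replicate block, 184 when scaled to the total FPKM and 105 when scaled to the spike-ins. Signs that turned are given for results that passed on the deposited or the other scale. With total-FPKM scaling they were as follows. YKL 500 nM over DMSO in C312S gave GADD45A 0.085 and ZMAT3 0.14. YKL 2 µM over DMSO in C312S gave GADD45A 0.40, SESN1 0.094 and ZMAT3 0.049. THZ1 over YKL 2 µM in WT gave CDKN1A -0.21. C312S over WT under DMSO gave GADD45A -0.24 and ZMAT3 -0.034. YKL 2 µM over THZ531 as C312S minus WT gave MDM2 -0.0026. With spike-in scaling they were as follows, while some that passed on neither scale also turned, such as GDF15 with YKL 500 nM over DMSO in WT (-0.021). YKL 500 nM over DMSO in WT gave FAS -0.11, RRM2B -0.42 and TNFRSF10B -0.29. THZ1 over DMSO in WT gave CDKN1A -0.45, BTG2 -2.05, GADD45A -1.07, SESN1 -1.44, FAS -1.38, RRM2B -1.82, ZMAT3 -0.77, GDF15 -0.36, FDXR -0.83, PLK2 -0.48, SERTAD1 -0.78 and GADD45B -0.53. Combination 2 µM over DMSO in WT gave FAS -0.20, RRM2B -0.25 and ZMAT3 -0.062. YKL 500 nM over DMSO in C312S gave MDM2 0.49, GADD45A 0.61, SESN1 0.54, FAS 0.18, RRM2B 0.14 and ZMAT3 0.55. YKL 2 µM over DMSO in C312S gave MDM2 0.45, GADD45A 1.04, SESN1 0.78, FAS 0.39, RRM2B 0.22 and ZMAT3 0.53. Combination 500 nM over THZ531 in WT gave RRM2B -0.18. Combination 2 µM over THZ531 in WT gave GADD45A -0.052, SESN1 -0.10, FAS -0.23, RRM2B -0.51 and ZMAT3 -0.24. YKL 2 µM over YKL 500 nM in WT gave CDKN1A 0.30, MDM2 0.50, GADD45A 0.42 and SESN1 0.34. Combination 500 nM over THZ531 in C312S gave GADD45A -0.31, SESN1 -0.29 and ZMAT3 -0.27. Combination 2 µM over THZ531 in C312S gave CDKN1A -0.25, BTG2 -0.44, GADD45A -0.47, SESN1 -0.45 and FAS -0.47. YKL 500 nM over THZ531 in C312S gave CDKN1A -0.12 and BTG2 -0.28. YKL 2 µM over THZ531 in C312S gave BTG2 -0.060 and FAS -0.24. THZ1 over YKL 2 µM in WT gave CDKN1A -1.84. C312S over WT under DMSO gave MDM2 -0.85, GADD45A -1.02, SESN1 -0.25, FAS -0.15, RRM2B -0.53 and ZMAT3 -0.63. THZ1 over DMSO as C312S minus WT gave CDKN1A 0.13, BTG2 1.52, GADD45A 1.21, SESN1 1.39, FAS 1.09, RRM2B 1.71 and ZMAT3 0.79. The number of the 9 genes called moved by over 1.5 times with spike-in scaling to 8 for YKL 2 µM over 500 nM in WT, 9 for THZ1 over YKL 2 µM in WT, 4 for the combination at 2 µM over DMSO in WT, 2 for THZ1 over DMSO in C312S, 6, 8 and 8 for the combination at 500 nM, that at 2 µM and YKL 500 nM over THZ531 in C312S, and 4 for the difference between lines with the combination at 2 µM. With total-FPKM scaling it moved to 4 for THZ531 and 8 for THZ1 over YKL 2 µM in WT, and for YKL 2 µM over 500 nM it was 0 with a pseudocount of 0.1, without a filter and with only the compared groups. Leaving out 1 library gave 1 to 5 called genes for THZ531 over DMSO in WT and 0 to 1 for the WT YKL doses. The causes were not tested. The replicate numbers of the labels did not pair the libraries: in 0 of 25 comparisons were all 3 same-number correlations over 0.1, 20 of 42 libraries correlated best with their own number, and the mean correlation was 0.0150 for the same number and -0.0075 for others. With the replicate block CDKN1A lost its call for THZ1 over DMSO in C312S (-0.22), and no other call changed. The 24 results of other p53 pathway genes kept their calls in every fit except with spike-in scaling, where 5 turned (above). The unknown depth limits what can be said of GDF15 and other genes near 1 FPKM.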
